A study of Mus musculus with 7 samples.

Results

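The genes of cholesterol synthesis, uptake and sterol-regulated transcription were examined in the RNA sequencing of secondary follicle-enclosed oocytes from mice with an oocyte-specific deletion of *Mfn1*, the mitofusin that fuses outer mitochondrial membranes. The group was defined by name and holds 29 of the 22877 genes of the deposited table, and all 29 had a row. Of these, 19 encode enzymes of the mevalonate and sterol pathway, 5 encode the sterol regulatory element-binding proteins (SREBPs) and their regulators, and 5 act in uptake, storage, transport or efflux. Oocytes came from 8-week-old C57BL/6J females. *Mfn1*-/- denotes mice with floxed *Mfn1* alleles crossed to a *Zp3*-driven Cre, which is active in growing oocytes, and WT denotes littermates, for which the sources used here do not give the floxed or Cre alleles. Oocytes were pooled by 5 for each library, and the labels list 4 WT and 3 *Mfn1*-/- libraries. The methods of the study describe fewer WT libraries than the labels do, and the total column of the table fits the labels. The values used here are 1 mean of normalized counts per genotype and gene, so no spread between libraries was computed and no test was run. The table's own test columns were not used, and every difference below is a difference between a pair of means.

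Cells make cholesterol from acetyl-CoA through mevalonate, the isoprenyl diphosphates, squalene and lanosterol. SREBPs are membrane-bound transcription factors that SCAP escorts to the Golgi for activation when sterols are scarce, while INSIG proteins hold them in the endoplasmic reticulum when sterols are plentiful. Mouse oocytes are known to be poor makers of cholesterol and to depend on the surrounding granulosa cells for it, which is why markers of those cells were measured beside the pathway.

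The level of *Mfn1* was 0.0577 normalized counts in *Mfn1*-/- oocytes and 0.616 in WT oocytes, lower in the deleted genotype as labelled. The 12 oocyte marker genes summed to 2756 normalized counts in *Mfn1*-/- oocytes and 2532 in WT, led by *Dppa3* (812 and 816), *Zp3* (708 and 609) and *Gdf9* (533 and 461). With 0.1 added to both means, 3 of the 12 (25%) were at least 1.5-fold higher in *Mfn1*-/- oocytes, against 12.4% of all genes. As much lower were 0 of the 12, against 6.88% of all genes. The 3 were chosen after their values were seen. The germ cell transcription factor gene *Sohlh1* stood apart, with 3.68 and 0.105, beside *Figla* (34.9 and 18.7) and *Ddx4* (2.74 and 1.51). Of 14 granulosa markers, 12 had a row and summed to 2.31 and 1.62, of which *Inha* made up 1.87 and 0.954. Without *Inha* the other 11 summed to 0.442 and 0.669, with *Cyp19a1* at 0.0846 and 0.193 and *Hsd17b1* at 0.0412 and 0.152. Of 6 theca and steroid-producing markers, 5 had a row and summed to 0.586 and 0.436, led by *Hsd3b1* (0.391 and 0.245), *Star* (0.0845 and 0.105) and *Cyp11a1* (0.0602 and 0.0471). Of 5 blood and vessel markers, 2 had a row, the macrophage gene *Cd68* with 7.58 in *Mfn1*-/- and 0.672 in WT oocytes and *Pecam1* with 0.168 and 0.188. The part of other cells in the values below was not tested. In pooled oocytes, fewer transcripts per oocyte and a smaller share of the amplified cDNA cannot be told apart.

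The cholesterol genes as a group lay slightly higher in *Mfn1*-/- oocytes, as did the transcriptome. The log2 fold change used throughout is the log2 ratio of the *Mfn1*-/- mean to the WT mean after 0.1 was added to both. Its median was 0.19 over the 29 genes and 0.037 over all genes of the table. Over the 6255 genes whose average of both means was at least 1, it was 0.16. Of the 29, 21 were higher on average in *Mfn1*-/- oocytes and 8 lower, a share of 72.4% higher against 56.7% of all genes. Among the 15 members with an average of at least 1, the median was 0.21 and 10 were higher, a share of 66.7% against 65.9% of all genes at that level. Relative to the shift of 0.16, 15 members lay above and 14 below, a share of 51.7% above against 36.3% of all genes. Most of all genes had an average under 1, where the added 0.1 pulls values toward 0 and so below this shift. The 36.3% is therefore not a like background for the members. Among members with an average of at least 1, 9 lay above and 6 below. All genes at that level split evenly, 3127 above and 3127 below, because the shift is their median. *Mvk*, *Idi1*, *Lss*, *Nsdhl*, *Srebf2* and *Insig2* turned from higher to lower. All of these but *Idi1* had an average under 1, where the added 0.1 pulls the log2 fold change toward 0.

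Few members differed by a large factor on this scale, on which the added 0.1 shrinks the differences of genes with low means. A difference of at least 2-fold was seen for 1 member, *Acat2*, which was higher, while 4.89% of all genes and 5.82% of genes with an average of at least 1 were as much higher. No member was 2-fold lower (0 of 29), against 2.76% of all genes and 3.15% of those with an average of at least 1. At 1.5-fold, 3 members were higher, a share of 10.3%, against 12.4% of all genes and 15.9% of those with an average of at least 1. At that size, 0 members were lower, against 6.88% and 7.48%. These shares of higher members are near or below the background of the table. The plain ratio of the means, with nothing added, was also at least 1.5 for *Dhcr7* (1.78), *Cyp51* (1.51), *Sqle* (1.50) and *Hsd17b7* (1.50). Because the scaling of the counts and any correction for gene length are not given in the sources used here, levels are compared between genotypes and not between genes.

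**Figure D1:**
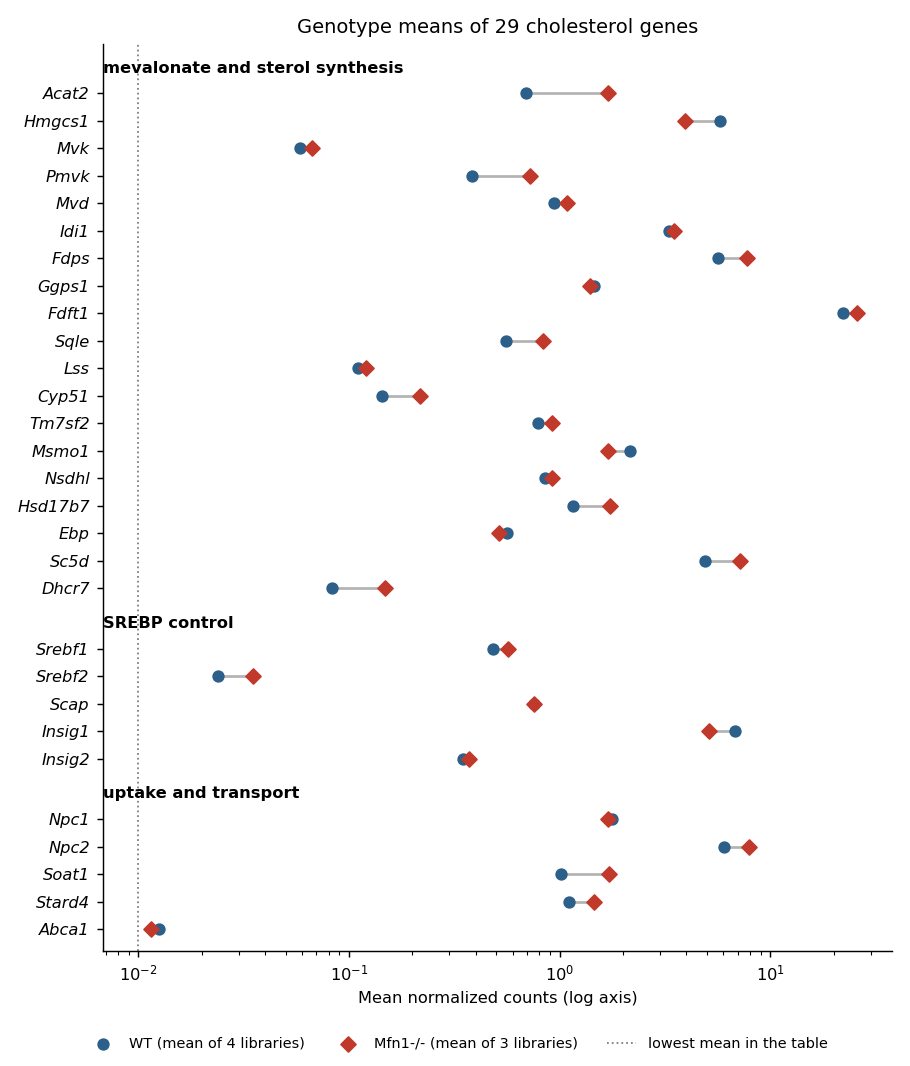
Mean normalized counts (log axis) of the 29 cholesterol genes in WT (circles, mean of 4 libraries) and *Mfn1*-/- oocytes (diamonds, mean of 3 libraries), with the lowest mean of the table, 0.01, as a dotted line. *Acat2* has the widest gap, from 0.695 to 1.69, while *Hmgcs1*, *Msmo1* and *Insig1* have their diamonds to the left of their circles.

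Promoter sequence is shown for the genes at both ends of the range, because SREBPs act on sterol regulatory elements in promoters, usually beside binding sites of NF-Y and Sp1. These are the pairs with the lowest (*Hmgcs1*, *Insig1*) and highest (*Acat2*, *Soat1*) log2 fold change among members with an average of at least 1 and a single promoter window. In GENCODE M21, *Hmgcs1* spans chr13:119690379-119708260, *Insig1* chr5:28071363-28078662, *Acat2* chr17:12942890-12960747 and *Soat1* chr1:156424525-156474331. Each window runs 5′ to 3′ from 250 bases before to 50 bases after the RefSeq start, on GRCm38.p6. Capitals mark the letters TCACNCCAC (a sterol regulatory element), CCAAT (the NF-Y box) and GGGCGG (a GC box), on either strand.

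Hmgcs1 (chr13:119690101-119690400, plus strand): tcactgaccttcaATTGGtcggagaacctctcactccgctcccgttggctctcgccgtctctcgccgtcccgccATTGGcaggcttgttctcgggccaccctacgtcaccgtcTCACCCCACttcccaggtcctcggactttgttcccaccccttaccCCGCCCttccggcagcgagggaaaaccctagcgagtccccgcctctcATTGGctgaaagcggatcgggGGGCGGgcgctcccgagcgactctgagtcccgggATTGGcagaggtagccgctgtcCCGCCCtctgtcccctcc

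Insig1 (chr5:28071162-28071461, plus strand): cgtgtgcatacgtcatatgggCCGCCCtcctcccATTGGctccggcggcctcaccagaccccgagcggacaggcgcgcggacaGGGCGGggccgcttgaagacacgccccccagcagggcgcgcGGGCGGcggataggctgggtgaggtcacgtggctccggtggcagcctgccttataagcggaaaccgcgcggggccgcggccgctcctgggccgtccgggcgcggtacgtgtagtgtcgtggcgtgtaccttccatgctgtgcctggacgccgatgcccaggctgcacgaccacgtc

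Acat2 (chr17:12960676-12960975, minus strand): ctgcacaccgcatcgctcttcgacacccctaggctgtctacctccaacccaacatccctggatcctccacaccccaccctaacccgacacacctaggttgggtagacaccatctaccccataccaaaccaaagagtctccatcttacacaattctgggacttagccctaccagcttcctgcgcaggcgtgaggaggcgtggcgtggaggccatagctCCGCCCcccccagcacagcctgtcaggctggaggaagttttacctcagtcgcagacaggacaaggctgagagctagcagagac

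Soat1 (chr1:156474279-156474578, minus strand): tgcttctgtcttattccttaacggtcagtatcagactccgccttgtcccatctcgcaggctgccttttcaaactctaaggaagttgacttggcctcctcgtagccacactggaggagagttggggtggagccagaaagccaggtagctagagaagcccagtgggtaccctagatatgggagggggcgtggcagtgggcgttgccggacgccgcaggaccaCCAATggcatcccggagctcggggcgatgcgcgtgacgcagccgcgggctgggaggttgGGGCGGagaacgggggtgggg

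A window was found for 24 of the 29 members. The sterol element TCACNCCAC occurred in 1 of the 24, *Hmgcs1* (4.17%), against 1.41% of 17492 protein-coding genes. The CCAAT box occurred in 21 of the 24 (87.5%), against 42.3% of protein-coding genes and 45.1% of genes with an average of at least 1. A GC box occurred in 22 of the 24 (91.7%), against 49.2% and 65.0%. The 3 members with a window and no CCAAT box were *Acat2*, *Scap* and *Abca1*. The *Hmgcs1* window held 4 CCAAT boxes and 3 GC boxes besides the sterol element, that of *Insig1* 1 and 3, and that of *Soat1* 1 and 1, while that of *Acat2* held 1 GC box alone. A gene counted when any of its windows held the letters, so a gene with more windows had more chances of a match. The number of windows per gene was not compared between members and other genes. A match is a description of these letters, not a bound site.

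The entry into the pathway held both the highest and the lowest value of the group. *Acat2*, the cytosolic thiolase that joins acetyl-CoA units, averaged 1.69 normalized counts in *Mfn1*-/- oocytes and 0.695 in WT, a log2 fold change of 1.17. Of genes with an average of at least 1, 4.06% had a log2 fold change as high. *Hmgcs1*, the cytosolic HMG-CoA synthase that takes the next step, averaged 3.94 against 5.76, with a log2 fold change of -0.54, the lowest of the 29. Consecutive enzymes thus differed in opposite directions, and 8.31% of genes with an average of at least 1 had a value as low as that of *Hmgcs1*.

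The 3 enzymes that turn mevalonate into isopentenyl diphosphate had higher means in *Mfn1*-/- oocytes. So did 56.7% of all genes and 65.9% of those with an average of at least 1. These shares are the background for the counts of higher genes by stage and role that follow. *Pmvk*, phosphomevalonate kinase, averaged 0.722 against 0.383, a log2 fold change of 0.77, the second highest of the group. *Mvd*, the decarboxylase, averaged 1.09 against 0.942 (log2 fold change 0.19). *Mvk*, mevalonate kinase, was close to the lower end of the table, at 0.0665 against 0.0582 (0.074). At such levels the added 0.1 outweighs the means themselves, so the log2 fold change says little.

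The isoprenyl diphosphate enzymes, which supply farnesyl and geranylgeranyl groups for protein prenylation as well as for sterols, included 1 gene with a higher mean in *Mfn1*-/- oocytes and 2 with nearly equal means. *Fdps*, farnesyl diphosphate synthase, averaged 7.72 in *Mfn1*-/- and 5.64 in WT oocytes, a log2 fold change of 0.45. *Idi1*, the isomerase before it, averaged 3.51 against 3.32 (0.078). *Ggps1*, which extends farnesyl to geranylgeranyl diphosphate, averaged 1.39 against 1.45 (-0.057).

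All 3 enzymes of squalene and lanosterol synthesis averaged higher in *Mfn1*-/- oocytes, as did 56.7% of all genes. *Fdft1*, the squalene synthase that commits farnesyl diphosphate to sterols, averaged 25.7 in *Mfn1*-/- and 22.2 in WT oocytes. Its log2 fold change of 0.21 was exceeded or equalled by 45.2% of genes with an average of at least 1. *Sqle*, squalene epoxidase, averaged 0.835 against 0.555 (0.51), and *Lss*, lanosterol synthase, 0.121 against 0.11 (0.074).

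Of the 8 enzymes between lanosterol and cholesterol, 6 were higher on average in *Mfn1*-/- oocytes and 2 lower, with a median log2 fold change of 0.29. *Sc5d*, the desaturase that makes the sterol diene near the end of the pathway, averaged 7.15 against 4.9 (log2 fold change 0.54). *Hsd17b7*, a ketosteroid reductase, averaged 1.74 against 1.16 (0.55). Of genes with an average of at least 1, 18.4% were as high as *Sc5d* and 17.9% as high as *Hsd17b7*. *Dhcr7*, which makes cholesterol in the last step, averaged 0.148 against 0.0831 (0.44), and *Cyp51*, the lanosterol demethylase, 0.218 against 0.144 (0.38). With nothing added to the means, the log2 ratio of *Dhcr7* was 0.83 and the highest of the 8, and that of *Cyp51* was 0.60. *Tm7sf2*, a sterol reductase, averaged 0.924 against 0.79 (0.20), and *Nsdhl*, a sterol dehydrogenase, 0.919 against 0.855 (0.094). The lower means were those of *Msmo1*, the methylsterol oxidase that acts with *Nsdhl* and *Hsd17b7* in demethylation, at 1.7 against 2.16 (-0.33), and of *Ebp*, the sterol isomerase, at 0.517 against 0.56 (-0.097). The 3 demethylation genes therefore did not share a direction.

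**Figure D2:**
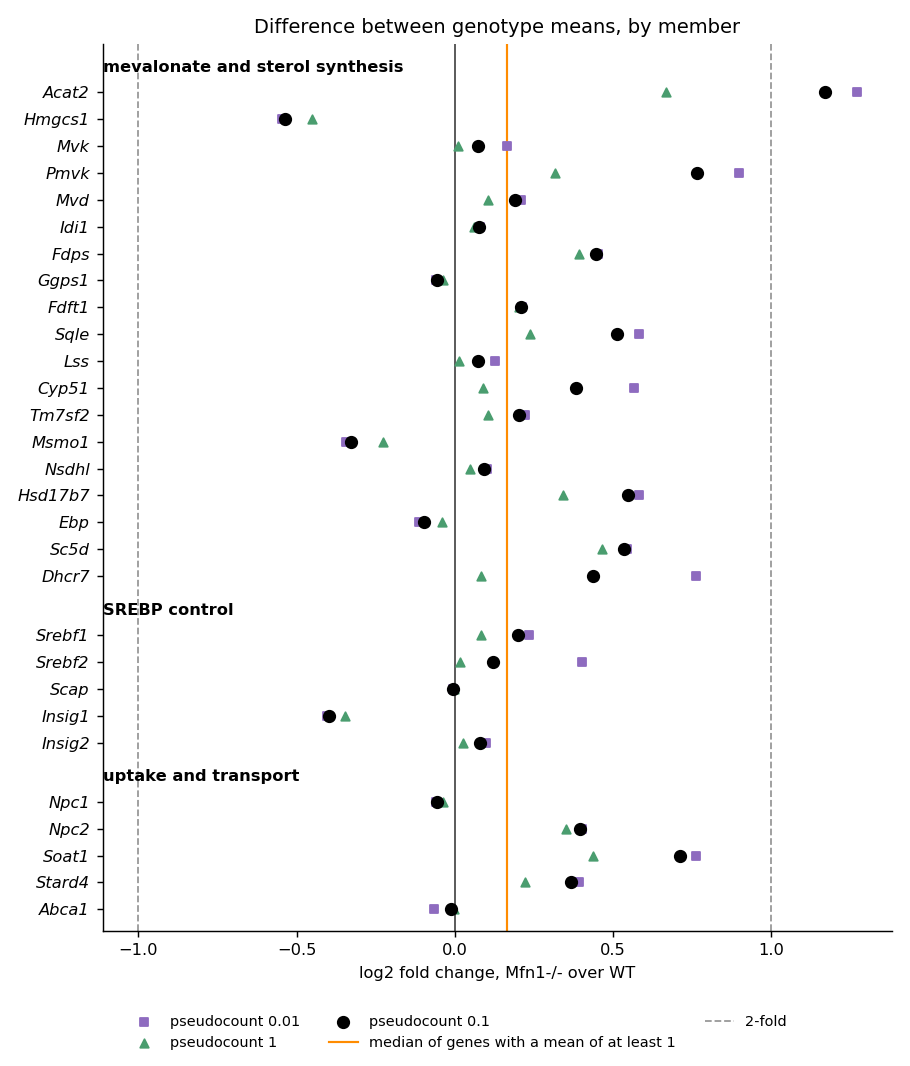
Log2 fold change of each member (*Mfn1*-/- over WT) with 0.1 (black circles), 0.01 (squares) or 1 (triangles) added to both means, the median of genes with an average of at least 1 (orange line, 0.16) and 2-fold limits (dashed lines). *Acat2* alone lies past 2-fold with 0.1 added, at 1.17, and within it, at 0.67, with 1 added.

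Of the 5 genes that control SREBP activity, 3 had higher means in *Mfn1*-/- oocytes and 2 lower, with a median log2 fold change of 0.079. The value farthest from 0 was that of *Insig1*. *Insig1*, which retains SCAP in the endoplasmic reticulum and is itself a well-known SREBP target, averaged 5.14 in *Mfn1*-/- and 6.81 in WT oocytes, a log2 fold change of -0.40. Its relative *Insig2* averaged 0.371 against 0.346 (0.079). *Scap* averaged 0.754 against 0.757 (-0.0051), the smallest difference of the 29. *Srebf1*, which encodes the factor best known for fatty acid genes, averaged 0.571 against 0.484 (0.20). *Srebf2*, which encodes the factor best known for cholesterol genes, was listed at 0.0349 against 0.024 (0.12), near the lowest mean of the table, 0.01. A log2 fold change as low as that of *Insig1* was seen in 11.5% of genes with an average of at least 1. The 3 members with the lowest log2 fold change, *Hmgcs1*, *Insig1* and *Msmo1*, are known SREBP targets, as are most enzymes of the pathway, among them *Sqle*, *Fdps* and *Sc5d*, whose means were higher in *Mfn1*-/- oocytes. The means of these named SREBP targets thus did not share a direction. Of all 19 synthesis genes, 15 were higher and 4 lower, and SREBP activity was not tested.

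**Figure D3:**
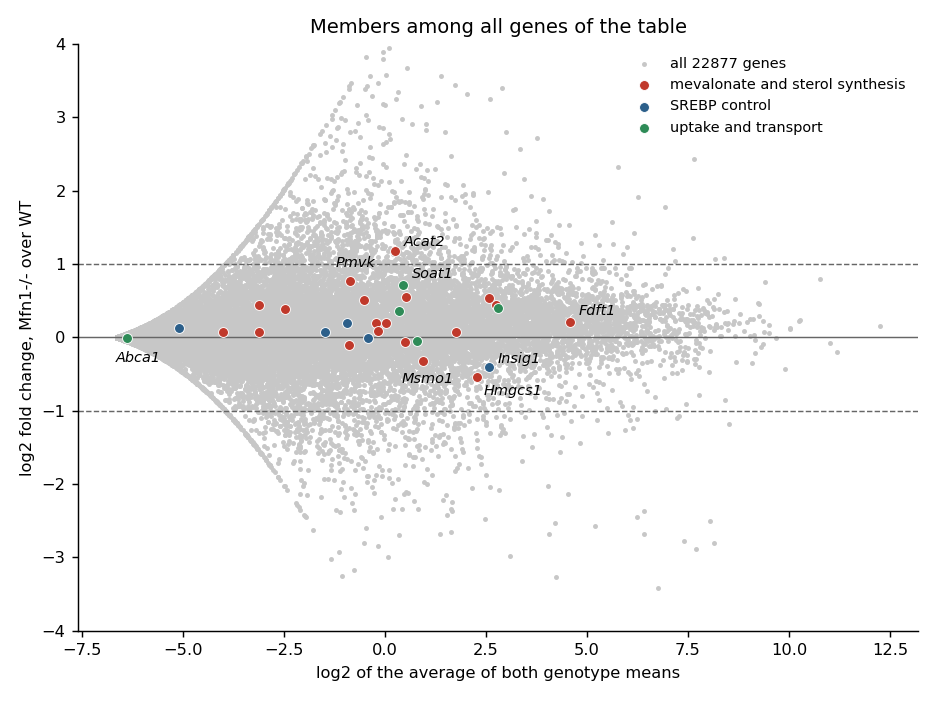
Log2 fold change (*Mfn1*-/- over WT) against the log2 average of both genotype means for all 22877 genes (gray) and the 29 members, colored by role, with dashed 2-fold limits. Members lie inside the gray cloud, with *Acat2* at 1.17 and *Hmgcs1* at -0.54 at the ends of their range, and 11 other genes lie beyond the plotted limits of 4.

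Of the 5 uptake and transport genes, 3 averaged higher in *Mfn1*-/- oocytes, led by a gene of cholesterol storage. *Soat1*, which esterifies cholesterol for storage in droplets, averaged 1.72 in *Mfn1*-/- and 1.01 in WT oocytes, a log2 fold change of 0.71. Of genes with an average of at least 1, 11.2% were as high. *Npc2*, the soluble lysosomal protein that hands cholesterol to NPC1, averaged 7.95 against 6.02 (0.40), while *Npc1*, its membrane partner, averaged 1.7 against 1.77 (-0.055). *Stard4*, a cytosolic sterol carrier, averaged 1.46 against 1.11 (0.37). *Abca1*, the efflux pump, was listed at 0.0115 against 0.0125, just above the lowest mean of the table, so no difference can be read from it.

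Some members share sequence with other genes, so their reads could have been divided or joined in counting. With at least 500 aligned bases at 95% identity or more as the limit, a choice made after the values were seen, 5 members had near-identical copies elsewhere in the genome. Shorter matches, of at least 75 bases, were found for 14 members, 11 of which had no longer copy. *Acat2* was among the 14, with a match to the protein-coding gene *Tcp1* (98.7% identity over 445 bases). Genes with these shorter matches, *Tcp1* included, were left out of the sums below. *Fdps* matched 4 processed pseudogenes in the table, of which *Gm3571* (98.9% identity over 1062 bases) had 30 normalized counts in *Mfn1*-/- oocytes and 21.3 in WT, and *Gm5873* (96.7% over 1066 bases) had 10.3 and 6.69. Both were listed above *Fdps* itself, on a scale whose length correction is unknown, and lay in its direction, with log2 fold changes of 0.49 and 0.62. The remaining copies of *Fdps*, *Gm8163* and *Gm7979*, had 0.499 and 0.387, and 0.214 and 0.0377. *Gm6781*, a copy of *Fdft1* (97.4% over 1249 bases), had 65.3 and 54.2 (log2 fold change 0.27). *Gm13502*, a copy of *Idi1* identical over 684 bases, had 10.2 and 8.91 (0.19). *Acat3*, a paralog of *Acat2* (97.7% over 1477 bases), had 0.158 and 0.18 (-0.12), against the direction of *Acat2*. The copy of *Ggps1*, *Gm5630*, had no row under that name, nor did another copy of *Idi1*, *Gm35570* (97.7% over 681 bases). Each member was then summed with those of its copies that had a row. The log2 fold change of the sum was 0.52 for *Fdps*, 0.25 for *Fdft1*, 0.16 for *Idi1* and 1.00 (0.9985) for *Acat2*. On these sums no member (0 of 29) reached 2-fold.

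**Figure D4:**
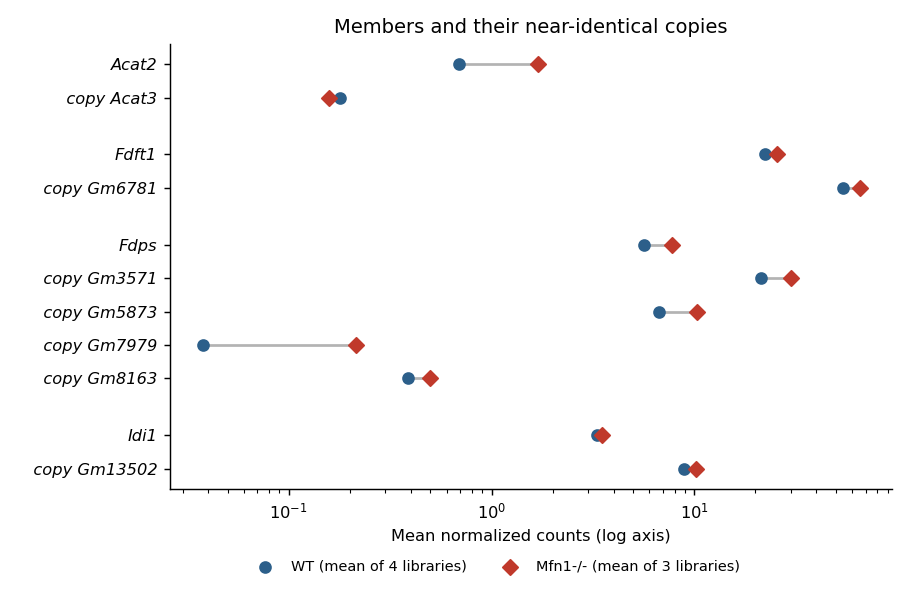
Mean normalized counts (log axis) in WT (circles, mean of 4 libraries) and *Mfn1*-/- oocytes (diamonds, mean of 3 libraries) for 4 members and their near-identical copies in the table. The pseudogenes *Gm3571*, *Gm6781* and *Gm13502* lie to the right of *Fdps*, *Fdft1* and *Idi1*, and *Acat3* lies to the left of *Acat2*.

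Exons of 11 members overlap those of another gene in GENCODE M21, for 9 of them a gene on the opposite strand, and the library kit does not mark strand. *Fdft1* shares 774 exonic bases with *Ctsb*, a lysosomal protease gene on the other strand, which averaged 9.2 against 6.62. *Tm7sf2* shares 532 bases with *Vps51* on the same strand, which averaged 0.576 against 0.328. *Fdps* shares 1124 bases with the same-strand gene *Gm43738*, which had no row under that name. Reads from these stretches cannot be assigned to either gene from the table.

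Neighboring genes, listed by their place in the pathway, held no gene past 2-fold in either direction with 0.1 added to the means (0 of 52 in all 4 lists). On the same scale, 4.89% of all genes were 2-fold higher and 2.76% were 2-fold lower. With nothing added, 2 other uptake genes were past 2-fold higher and 2 lower, and 2 fatty acid genes were past 2-fold higher, all with averages under 1. The counts of higher genes below stand against 56.7% of all genes and 65.9% of genes with an average of at least 1. Among 14 other sterol enzymes and parts of the SREBP machinery, 11 were higher on average in *Mfn1*-/- oocytes (78.6%) and 3 lower, with a median log2 fold change of 0.083. The 2 with the highest average were *Pgrmc1*, a heme-binding partner of sterol enzymes, with 11.5 against 6.37 (0.84), and *Acat1*, the mitochondrial thiolase, with 6.08 against 4.68 (0.37). Among 17 other uptake, transport and LXR genes, 9 were higher and 8 lower, with a median of 0.0065. *Nr1h2*, which encodes the oxysterol receptor LXR beta, averaged 6.22 against 6.25 (-0.0068), and *Osbp*, an oxysterol-binding protein gene, 0.91 against 0.8 (0.17). In the isoprenoid branch, which attaches isoprenyl groups to proteins and makes dolichol and coenzyme Q, 7 of 10 were higher and 3 lower, with a median of 0.13. *Fnta*, a subunit shared by the prenyltransferases, averaged 4.63 against 4.72 (-0.028), and *Rabggtb*, of the RAB prenyltransferase, 3.24 against 2.26 (0.50). Of 12 fatty acid genes known as SREBP1 targets, 11 had a row, 7 higher and 4 lower, with a median of 0.11. *Me1*, malic enzyme, averaged 1.74 against 2.1 (-0.26), and *Elovl5*, a fatty acid elongase, 0.803 against 1.12 (-0.43). Relative to the shift of 0.16, the medians of these lists were -0.081 for other sterol enzymes, -0.16 for other uptake genes, -0.034 for the isoprenoid branch and -0.055 for fatty acid genes. That shift was taken from genes with an average of at least 1, reached by 1 of the 17 other uptake genes and 1 of the 11 fatty acid genes. The added 0.1 pulls genes with lower means toward 0, and the median over all genes was 0.037. These negative values therefore do not place the lists below the transcriptome.

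**Figure D5:**
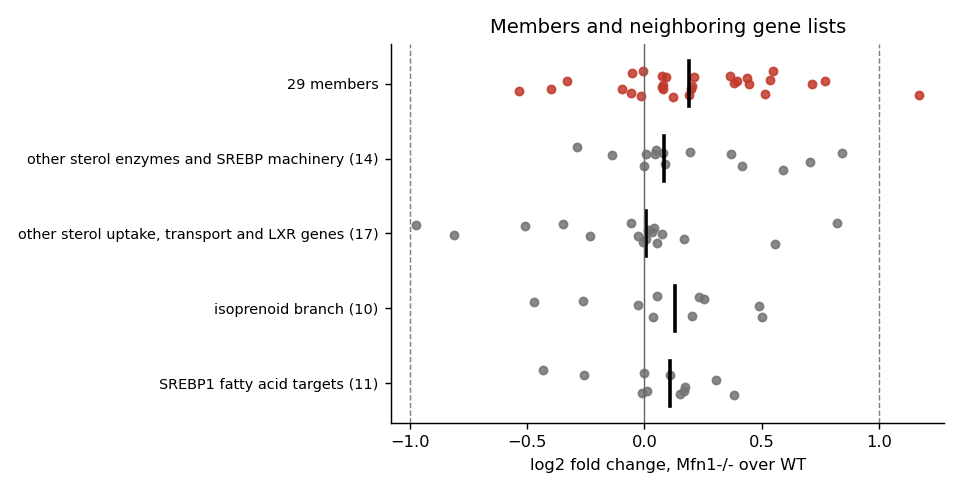
Log2 fold change (*Mfn1*-/- over WT) of the 29 members and of each gene in 4 neighboring lists, with list medians as black bars and 2-fold limits as dashed lines; vertical scatter within a row has no meaning. Medians run from 0.0065 for other uptake, transport and LXR genes to 0.19 for the members, and *Acat2* is the single point past a limit with 0.1 added to both means.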

How the data were processed

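Poly(A) RNA of 5 pooled secondary follicle-enclosed oocytes per library was amplified by the study with the Smart-Seq2 protocol and sequenced. Adapters were removed with Cutadapt and poor reads with the FASTX-Toolkit, and STAR placed the rest on GRCm38/mm10 for counting on genes. The annotation version and the normalization are not given in the sources used here. The authors deposited a signal per gene, which is its normalized count averaged within each genotype, and a total. That total matched the sum over 3 *Mfn1*-/- and 4 WT libraries to within 1% in 100% of genes. Depth per library is unknown. The table also holds the p-value, FDR, ratio and fold change of the authors' own comparison, which were not used. There were 0 columns of single libraries left unused.

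Members, gene lists and rules were chosen with earlier results of these data known. A pseudocount of 0.1 was added to both means, and a 2-fold limit was taken from the methods of the study. All members and *Mfn1* are named, with the genes past 2-fold of each neighboring list or, where there were none, the 2 with the highest average, and the 3 highest of each marker list. Copies, overlapping genes, *Sohlh1*, *Figla* and *Ddx4* were chosen after the values were seen. Positions came from GENCODE M21, promoter windows from RefSeq (GRCm38.p6), and transcripts were compared with blastn 2.17.0. Python 3.11.15, numpy 2.4.6, pandas 2.3.3 and matplotlib 3.10.9 were used, and the counting of calls was tested on simulated data. The alternatives were pseudocounts of 0.01, 1 and none, a minimum average of 1, a 1.5-fold limit, and centering on the median of genes with an average of at least 1. Summing members with their copies was added after the data were seen.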

Additional observations from a re-analysis of the deposited data

How the results depend on the processing

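No paired analysis was possible because the table holds genotype means and no values of single libraries, and for the same reason no replicate could be left out. The number of cholesterol genes at least 2-fold higher was 1 with pseudocounts of 0.1, 0.01 and none, 0 with a pseudocount of 1, 0 after summing with near-identical copies, and 3 at a 1.5-fold limit, while the number 2-fold lower was 0 in every one of these settings. With a pseudocount of 1, the median log2 fold change was 0.082 for all members, 0.090 for synthesis with 0 genes past 2-fold, 0.22 for uptake and 0.027 for the isoprenoid branch. After the shared shift was subtracted, the medians were 0.028 for all members, 0.038 for synthesis, -0.085 for SREBP control, 0.20 for uptake, -0.081 for other sterol enzymes, -0.16 for other uptake genes with 1 gene 2-fold lower, -0.034 for the isoprenoid branch and -0.055 for fatty acid genes, and 6 members (*Mvk*, *Idi1*, *Lss*, *Nsdhl*, *Srebf2*, *Insig2*) changed sign. Among genes with an average of at least 1, which leaves fewer genes, the medians were -0.40 for SREBP control and -0.26 for fatty acid genes, 1 gene each, 0.19 for other sterol enzymes and 0.23 for the isoprenoid branch. At 1.5-fold, 2 synthesis genes (10.5%), 1 uptake gene (20%), 3 other sterol enzymes (21.4%) and 1 other uptake gene (5.88%) were higher. That compares with 12.4% of all genes. At that limit 2 of the 17 other uptake genes were lower, against 6.88% of all genes. With a pseudocount of 0.01 or none, 2 other uptake genes were higher and 2 lower, 1 or 2 fatty acid genes were higher, and the median of the fatty acid genes was 0.43 or 0.46. No member changed sign under the pseudocounts (0 of 29). The shift came from genes with an average of at least 1, and the added 0.1 pulls genes with lower means toward 0. Signs after the shift was subtracted are therefore hard to read for such genes. The lack of single-library values limits every difference here, and members with an average under 0.1 (3 of 29) lie too near the lowest mean for a ratio to be read.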

Other observations

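Among the other uptake and transport genes, 3 had the log2 fold changes farthest from 0 with 0.1 added to the means, and were chosen after their values were seen. *Stard5*, a cytosolic sterol carrier gene, averaged 0.32 normalized counts in *Mfn1*-/- oocytes and 0.724 in WT, a log2 fold change of -0.97. *Gramd1c*, of the family that moves sterols from the plasma membrane to the endoplasmic reticulum, averaged 0.0453 against 0.155 (-0.81). *Stard3*, a late endosomal sterol carrier gene, averaged 0.335 against 0.146 (0.82). None of the 3 passed 2-fold on that scale, but the plain ratios of the means, 0.442, 0.292 and 2.29, did.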
